A study of Mus musculus with 16 samples.

Results

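Within the corn oil/cellulose arm of a mouse colonocyte RNA-seq series, libraries came with names of 2 forms, and their transcriptomes differed along that line. The names of 5 count columns began with GC, and these libraries are called GC-named below. The names of the other 4 columns began with A (replicate 1) or Q (replicates 2, 3 and 4), and these libraries are together called other-named. Together they make up 9 of the 16 libraries of the series, chosen by diet and name form alone, with no measured value. All 9 were labelled colonocytes of C57BL/6 mice given corn oil and cellulose for 3 weeks, so no stated genotype, strain, agent or time separates the forms. Age and sex are not in the labels used here, and no source used here says what the prefix stands for, so the contrast is a group difference of unknown cause. The labels number the libraries as biological replicates without saying whether each came from its own mouse, so the spread behind a p-value is that between libraries. A fish oil/pectin arm of the same series, fed for the same time, holds 5 GC-named and 2 other-named libraries (replicate 1 with Q, replicate 2 with A) and serves below as a comparison.

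Other-named libraries held 13996288 to 19331984 counts and GC-named libraries 15732242 to 18287234. The 10 most abundant genes took 4.93 to 5.10% of counts in other-named and 5.42 to 5.79% in GC-named libraries. Counts of 4 Y-linked genes were above 100 in 4 of 4 other-named libraries and in 2 of 5 GC-named libraries (replicates 5 and 9). Xist, an X-linked RNA, was at 536 to 613 CPM in GC-named replicates 6, 7 and 8 and at most 2.85 CPM in the rest. Library names also fell into a 700 series (2 other-named, 2 GC-named) and an 800 series (2 and 3). The first principal component, 46.2% of the variance, placed GC-named libraries at 15.7 to 26.9 and other-named libraries at -24.5 to -28.9. Epcam, the epithelial adhesion molecule, was at 2202 to 2252 CPM in other-named and 2238 to 2398 CPM in GC-named libraries (log2 difference 0.065 ± 0.057 (SE; adjusted p = 0.448)). This epithelial marker was thus abundant in both forms, but a single gene does not measure the purity of the preparations. CPM are counts relative to the library total after TMM scaling, and values are given in the order of replicates 1 to 4 (other-named), then 5 to 9 (GC-named).

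Several gene programmes are involved. Immediate early genes are transcribed within minutes of a stimulus from factors already present in the cell, among them serum response factor, which binds CArG boxes, and CREB, which binds the cyclic AMP response element. Their products include the AP-1 subunits FOS and JUN, zinc finger factors of the EGR and KLF families, orphan nuclear receptors of the NR4A family, and phosphatases and mRNA decay factors that shut the response down. Heat shock genes answer unfolded protein through heat shock factors. The colonic epithelium renews from crypt base stem cells into absorptive, goblet, enteroendocrine and tuft cells, and T cells reside between its cells.

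Sequences upstream of 6 genes described below are shown because their transcripts stood apart between the forms, and because they carry, or lack, elements named above. Each is the 250 bases before the RefSeq start on GRCm38.p6, 5′ to 3′ along the gene's strand, with the element in capitals: TGACGTCA in Dusp1 (chr17:26508473-26508722, minus strand), Ppp1r15a (chr7:45526269-45526518, minus strand) and Btg2 (chr1:134079156-134079405, minus strand), a CArG box in Zfp36 (chr7:28379229-28379478, minus strand), and a pair of overlapping heat shock elements in Hspe1 (chr1:55087898-55088147, plus strand). Fos (chr12:85473640-85473889, plus strand) held none of the elements searched.
Fos: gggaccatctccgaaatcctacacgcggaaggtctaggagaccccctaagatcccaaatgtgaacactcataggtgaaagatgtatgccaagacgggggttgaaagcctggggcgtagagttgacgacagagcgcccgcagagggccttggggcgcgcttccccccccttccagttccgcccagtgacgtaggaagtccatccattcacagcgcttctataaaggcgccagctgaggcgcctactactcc
Dusp1: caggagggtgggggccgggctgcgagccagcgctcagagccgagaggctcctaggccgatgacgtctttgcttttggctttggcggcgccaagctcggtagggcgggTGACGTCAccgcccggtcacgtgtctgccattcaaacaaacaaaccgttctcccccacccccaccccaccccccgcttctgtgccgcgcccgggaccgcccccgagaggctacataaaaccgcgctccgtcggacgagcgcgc
Ppp1r15a: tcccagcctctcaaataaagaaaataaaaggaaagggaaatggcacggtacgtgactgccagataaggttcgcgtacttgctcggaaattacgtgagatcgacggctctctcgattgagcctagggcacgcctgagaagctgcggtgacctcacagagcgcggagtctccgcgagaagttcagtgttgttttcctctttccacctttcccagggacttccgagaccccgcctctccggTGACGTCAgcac
Btg2: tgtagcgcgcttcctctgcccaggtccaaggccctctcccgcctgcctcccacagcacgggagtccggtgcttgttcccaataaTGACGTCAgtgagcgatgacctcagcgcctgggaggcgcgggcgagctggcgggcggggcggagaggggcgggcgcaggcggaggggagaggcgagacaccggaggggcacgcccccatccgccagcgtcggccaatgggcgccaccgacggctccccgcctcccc
Zfp36: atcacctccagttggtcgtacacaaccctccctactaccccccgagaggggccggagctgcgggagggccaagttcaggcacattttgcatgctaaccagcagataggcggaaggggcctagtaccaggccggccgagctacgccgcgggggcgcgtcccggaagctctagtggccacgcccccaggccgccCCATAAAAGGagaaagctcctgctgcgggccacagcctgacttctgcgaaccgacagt
Hspe1: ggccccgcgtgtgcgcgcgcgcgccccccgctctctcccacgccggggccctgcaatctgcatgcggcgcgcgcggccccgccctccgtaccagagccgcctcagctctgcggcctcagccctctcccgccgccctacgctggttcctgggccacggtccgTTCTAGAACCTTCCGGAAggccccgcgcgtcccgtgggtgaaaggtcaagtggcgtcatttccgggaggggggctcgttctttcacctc

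Both strands of the 250-base windows were searched. Of 64 immediate early genes, 48 had an upstream sequence in the table, and 5 of these (10.4%: Areg, Btg2, Dusp1, Plk2 and Ppp1r15a) held TGACGTCA, against 1.62% of 27025 genes in all. A CArG box stood in 3 (6.25%: Dusp5, Srf and Zfp36), against 1.40% of all. No motif contains another. The AP-1 element TGANTCA stood in 2 (4.17%), against 6.87% of all. The heat shock element, searched as GAANNTTCNNGAA or TTCNNGAANNTTC, stood upstream of 1 of 13 heat shock genes with a sequence (Hspe1, 7.69%), against 0.40% of all. A match describes letters in a window, and no match says only that these letters are not there.

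Many genes separated the forms by a modest amount, and a much smaller set by a large amount, most of these higher in GC-named libraries. Of 13468 autosomal genes tested, 2832 (21.0%) passed an adjusted p of 0.05 in edgeR's quasi-likelihood test, 1444 of them (10.7%) higher and 1388 (10.3%) lower in GC-named libraries. The median size among them was 0.34 on the log2 scale, whereas the median over all genes was 0.0054. A doubling or more was seen for 323 of the higher genes and a halving or more for 74 of the lower genes. All 5 GC-named libraries lay above all 4 other-named libraries for 1436 genes (10.7%) and below them for 1239 (9.20%). Scaled to total counts alone, 1115 of 2927 called genes (38.1%) were higher, against 51.0% with TMM factors.

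Without replicate 1, the A library, 1952 genes passed. The 700 series alone (2 against 2) gave 577 genes, the 800 series alone (2 other-named against 3) 411, and the 6 libraries with Y-linked counts 1834. Of the 116 autosomal genes named in the text, 101 passed the test in the whole comparison. All 101 kept their direction in each series and among the libraries with Y-linked counts. Each of these subsets is part of the same libraries that gave the 101 calls. Agreement in direction was therefore largely built in and is not a separate test. Adjusted p was under 0.05 for 77 of the 101 in the 700 series, 63 in the 800 series, 52 in both, and 88 among libraries with Y-linked counts. A score of 88 leukocyte, stromal, vascular, muscle and neural genes (mean log2 CPM) ran from 1.00 to 1.18 in other-named and from 2.11 to 2.69 in GC-named libraries. Most were leukocyte genes, among them 25 T and NK and 29 leukocyte cytoskeleton genes, against 12 autosomal genes of other tissue layers. Only genes past the abundance filter were used, and 14 of the 25 and 22 of the 29 passed without the GC-named level. The separation of the score was therefore in part built in. The score and the name form did not overlap and cannot be told apart: with the score as a term, 19 genes passed (15 higher, 4 lower) and 1553 had an unadjusted p under 0.05.

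Immediate early genes were higher in GC-named libraries. Of 64 members of 5 lists, 58 were autosomal and abundant enough to test, and 36 of these (62.1%, against 10.7% of all genes) were higher and 0 lower. All 5 GC-named libraries lay above all other-named libraries for 33 of them. Their median log2 difference was 0.85, against 0.0054 over all genes. At an unadjusted p under 0.05, each of the 5 lists also had 0 lower members.

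AP-1 subunits, which pair as FOS and JUN dimers on DNA, contributed 6 higher and 0 lower members of 9 tested (10 listed), with a median of 1.22. Fos (ENSMUSG00000021250.13, chr12:85473890-85477273 on GRCm38), the prototype of the class, was at 124, 166, 87.4 and 103 CPM in the other-named libraries and 600.5, 613, 668, 632 and 693 CPM in the GC-named libraries. Jun (ENSMUSG00000052684.4, chr4:95049034-95052222), its main partner, was at 127, 121, 113 and 109.6 CPM in the other-named libraries and 766, 726, 718, 798 and 851 CPM in the GC-named libraries. Every GC-named library exceeded every other-named library by a wide margin for both, and other-named libraries were tight for Jun and more scattered for Fos. The log2 differences were 2.41 ± 0.17 (SE; adjusted p = 1.33e-05) for Fos, a 5.32-fold difference, and 2.71 ± 0.076 (SE; adjusted p = 2.58e-10) for Jun, a 6.55-fold difference. Fosb, a FOS paralogue whose transcript is nearly silent in resting tissue, was at 23.4, 23.9, 12.9 and 8.58 CPM in the other-named libraries and 158, 153, 186, 150.03 and 225 CPM in the GC-named libraries (log2 difference 3.32 ± 0.31 (SE; adjusted p = 0.000229)). Junb, a JUN family member that restrains growth, was at 104, 113, 108 and 98.7 CPM in the other-named libraries and 284, 297, 288, 319 and 323 CPM in the GC-named libraries (log2 difference 1.51 ± 0.063 (SE; adjusted p = 8.23e-09)). The groups were apart for these as well, and the spread within a group was widest for Fosb. Jund, the JUN member with steady basal expression, was at 229 to 291 against 399.6 to 445 CPM, a smaller log2 difference of 0.72 ± 0.077 (SE; adjusted p = 6.47e-05). Atf3, a stress-induced AP-1 partner, was at 17.5 to 33.8 against 36.5 to 67.5 CPM (log2 difference 1.04 ± 0.24 (SE; adjusted p = 0.0145)), not called among libraries with Y-linked counts alone (adjusted p = 0.086) or without the abundance filter (adjusted p = 0.0514). Here and below, a pair of ranges gives other-named libraries first, then GC-named.

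**Figure D1:**
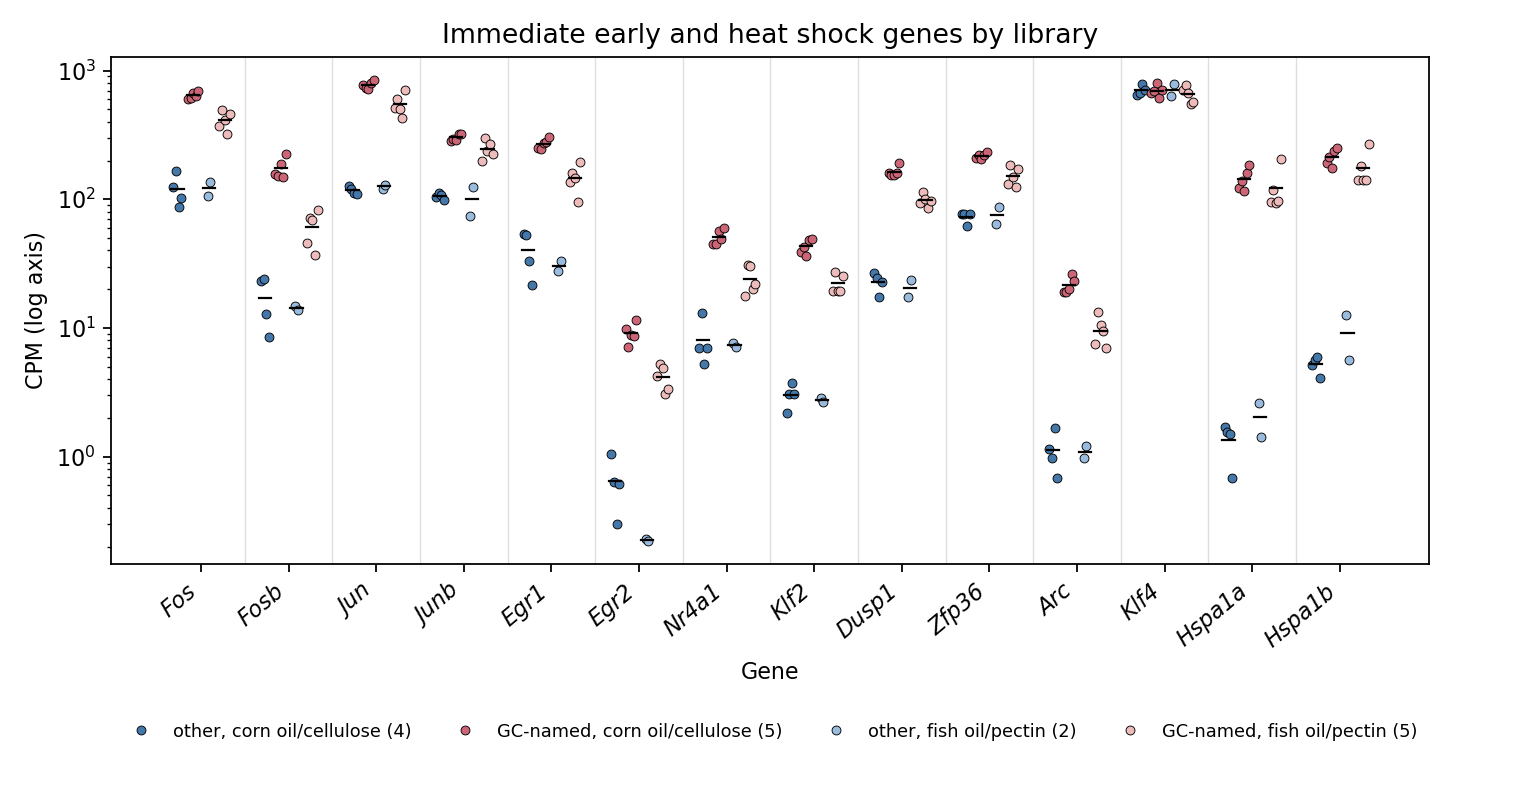
CPM (log axis) of 14 immediate early and heat shock genes in each library of the 4 groups, with a point per library and a bar at each group mean. Corn oil/cellulose GC-named libraries lie above all other-named libraries of that diet for all shown except Klf4, whose groups overlap.

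EGR and NR4A factors showed the same pattern, with 5 higher and 0 lower of 7 tested (8 listed) and a median of 2.33; 4 of the 7 passed the abundance filter without the GC-named level, and 3 of these were called. Egr1, a zinc finger factor induced through serum response factor, was at 53.9, 52.4, 33.2 and 21.5 CPM in the other-named libraries and 249, 247, 275, 278 and 305 CPM in the GC-named libraries (log2 difference 2.74 ± 0.26 (SE; adjusted p = 0.000221)). Egr2 (ENSMUSG00000037868.15, chr10:67535475-67542188), its paralogue, was at 1.05, 0.630, 0.299 and 0.618 CPM in the other-named libraries and 9.84, 7.12, 8.80, 8.69 and 11.5 CPM in the GC-named libraries, a 13.7-fold difference (log2 3.77 ± 0.25 (SE; adjusted p = 1.45e-06)). Nr4a1, an orphan receptor also induced by antigen receptor signalling, was at 6.94, 13.1, 5.27 and 6.93 CPM in the other-named libraries and 44.9, 45.2, 57.2, 49.1 and 60.2 CPM in the GC-named libraries (log2 difference 2.66 ± 0.24 (SE; adjusted p = 9.5e-05)). No GC-named value of these 3 genes came near the other-named range. Nr4a2 was at 3.05 to 5.10 against 7.67 to 10.97 CPM (log2 difference 1.23 ± 0.16 (SE; adjusted p = 3e-04)).

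The KLF list held 6 higher and 0 lower of 10 genes, with a median of 0.60. Klf2 (ENSMUSG00000055148.7, chr8:72319033-72321656), a factor of quiescent T cells and endothelium, was at 2.20, 3.09, 3.71 and 3.09 CPM in the other-named libraries and 38.9, 42.9, 36.0, 48.0 and 49.5 CPM in the GC-named libraries. That is a 14.3-fold difference (log2 3.84 ± 0.15 (SE; adjusted p = 3.96e-09)), with a wide gap between the groups. Klf4, its paralogue in surface colonocytes, was at 645, 674, 793 and 702 CPM in the other-named libraries and 674, 689.6, 795, 613 and 701 CPM in the GC-named libraries. Here the groups overlapped throughout, with a log2 difference of -0.02 ± 0.082 (SE; adjusted p = 0.884). Ier2, a nuclear immediate early protein, was at 92.2 to 99.6 against 210.3 to 268 CPM (log2 difference 1.30 ± 0.069 (SE; adjusted p = 1.01e-07)). Its relative Ier5 was at 30.1 to 40.6 against 54.9 to 64.0 CPM (log2 0.83 ± 0.084 (SE; adjusted p = 3.95e-05)), and Hes1, a Notch target that represses secretory fate, at 78.1 to 99.4 against 132 to 183 CPM (log2 0.76 ± 0.10 (SE; adjusted p = 3e-04)).

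Negative regulators of the response were also higher, 11 of 21 with 0 lower and a median of 0.60. Dusp1 (ENSMUSG00000024190.7, chr17:26505590-26562128), the phosphatase that switches off p38 and JNK, was at 26.7, 24.6, 17.3 and 22.7 CPM in the other-named libraries and 161, 153, 154, 161 and 191 CPM in the GC-named libraries. Ppp1r15a, which directs dephosphorylation of eIF2alpha, was at 8.24, 8.88, 7.90 and 7.75 CPM in the other-named libraries and 51.6, 51.2, 42.3, 54.5 and 52.7 CPM in the GC-named libraries. Zfp36, which triggers decay of AU-rich mRNAs, was at 76.5, 76.9, 62.5 and 77.3 CPM in the other-named libraries and 210.1, 222, 207, 221 and 233 CPM in the GC-named libraries. All 3 were apart between the groups, with log2 differences of 2.84 ± 0.12 (SE; adjusted p = 2.73e-08) for Dusp1, 2.62 ± 0.091 (SE; adjusted p = 1.1e-09) for Ppp1r15a and 1.57 ± 0.072 (SE; adjusted p = 2.15e-08) for Zfp36. Btg2, an antiproliferative partner of the deadenylase complex, was higher by less: 157, 149, 149 and 166 CPM in the other-named libraries and 258, 294, 296, 309 and 289 CPM in the GC-named libraries (log2 difference 0.90 ± 0.063 (SE; adjusted p = 2.05e-06)). Dusp1, Ppp1r15a and Btg2 are the 3 shown above with TGACGTCA upstream, and Zfp36 is the gene with the CArG box.

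The remaining immediate early genes had 8 higher and 0 lower of 11 tested (13 autosomal members), with a median of 1.16. Arc (ENSMUSG00000022602.14, chr15:74669083-74672570), an activity-regulated gene best known in neurons, was at 1.15, 0.974, 1.68 and 0.686 CPM in the other-named libraries and 18.9, 18.996, 20.1, 26.3 and 23.3 CPM in the GC-named libraries, a 18.9-fold difference (log2 4.24 ± 0.19 (SE; adjusted p = 2.26e-08)). Rhob, a short-lived GTPase, was at 129.7, 138, 159.6 and 154 CPM in the other-named libraries and 299, 339, 315, 331 and 346 CPM in the GC-named libraries (log2 difference 1.16 ± 0.071 (SE; adjusted p = 4.71e-07)). Both were apart between the groups. Ier3, a survival factor, was at 3.11 to 6.01 against 11.99 to 14.2 CPM (log2 1.58 ± 0.16 (SE; adjusted p = 4.31e-05)) and Plk3, a stress-responsive kinase, at 9.19 to 18.6 against 30.2 to 50.9 CPM (log2 1.38 ± 0.22 (SE; adjusted p = 0.0021)).

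Higher calls were also found inside each number series. In the 700 series 5 AP-1, 4 EGR and NR4A, 4 KLF-list, 8 feedback and 3 other immediate early genes were higher, and in the 800 series 6, 5, 5, 10 and 6. With the non-epithelial score as a term 1, 0, 1, 1 and 1 were called. Jun (log2 difference 2.16, adjusted p = 0.0027), Klf2 (2.98, adjusted p = 0.0222), Ppp1r15a (1.83, adjusted p = 0.0222) and Arc (3.47, adjusted p = 0.0427) were those that passed then.

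Heat shock genes included the largest difference among the named genes. Of 17 tested (18 listed), 10 were higher (58.8%, against 10.7% of all genes) and 0 lower, with a median of 0.48. Without the GC-named level 16 passed the abundance filter, and 9 of these were called. Hspb1, described below, did not pass the filter then. Hspa1a (ENSMUSG00000091971.3, chr17:34969190-34972156), the inducible HSP70, was at 1.698, 1.55, 1.496 and 0.686 CPM in the other-named libraries and 123, 138, 115, 161 and 183 CPM in the GC-named libraries. Hspa1b (ENSMUSG00000090877.3, chr17:34956436-34959238), its neighbouring near-identical copy, was at 5.19, 5.67, 5.93 and 4.12 CPM in the other-named libraries and 192, 214, 174, 237 and 249 CPM in the GC-named libraries. Other-named libraries had a few CPM of either, and all GC-named libraries were far above them. The differences were 103-fold for Hspa1a (log2 6.68 ± 0.23 (SE; adjusted p = 5.69e-08)) and 40.5-fold for Hspa1b (log2 5.34 ± 0.14 (SE; adjusted p = 4.65e-10)), and how reads were split between the copies is uncertain. Both also passed with the non-epithelial score as a term, at 5.22 (adjusted p = 0.000316) and 4.23 (adjusted p = 0.00012). Hspb1, a small chaperone, was at 0.2997, 0.172, 0.120 and 0.0686 CPM in the other-named libraries and 1.80, 1.84, 1.79, 3.36 and 2.00 CPM in the GC-named libraries (log2 difference 3.59 ± 0.38 (SE; adjusted p = 5.72e-05)), and Hspe1, the mitochondrial co-chaperonin, was at 27.9 to 36.9 against 49.99 to 61.7 CPM (log2 0.87 ± 0.091 (SE; adjusted p = 5.34e-05)). Heat shock members were higher in 7 cases in the 700 series and 6 in the 800 series.

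Other stress lists moved less. The integrated stress and unfolded protein list had 2 higher and 2 lower of 23 (8.7% each, against 10.7% and 10.3% of all genes). It had 8 higher and 2 lower without GC-named replicate 9. Atf4, its central transcription factor, was at 138 to 161 against 220.2 to 254 CPM (log2 0.64 ± 0.064 (SE; adjusted p = 3.82e-05)), and Ddit3, the CHOP factor, at 8.99 to 9.91 against 15.0 to 18.2 CPM (log2 0.80 ± 0.088 (SE; adjusted p = 7.78e-05)). Vldlr, a lipoprotein receptor, was lower, at 22.5 to 24.6 against 15.0 to 20.3 CPM (log2 -0.42 ± 0.091 (SE; adjusted p = 0.00633)). Slc7a11, the cystine transporter that feeds glutathione synthesis and restrains ferroptosis, was at 2.00, 2.46, 3.65 and 3.36 CPM in the other-named libraries and 1.61, 1.19, 1.79, 1.87 and 1.62 CPM in the GC-named libraries (log2 difference -0.82 ± 0.22 (SE; adjusted p = 0.0179)). This call was lost without other-named replicate 3 (-0.67, adjusted p = 0.0555) or 4 (-0.74, adjusted p = 0.0552), among libraries with Y-linked counts (adjusted p = 0.0975) and with the length trend removed (adjusted p = 0.054). Hypoxia and glycolysis genes were higher in 6 of 21 cases (28.6%, against 10.7% of all genes) and lower in 0. Among those higher was the vasodilator peptide gene Adm, at 1.51 to 2.18 against 4.33 to 6.18 CPM (log2 1.45 ± 0.18 (SE; adjusted p = 0.000161)).

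Transcripts of T and natural killer cells were higher in GC-named libraries, at low levels. Of 28 members 25 could be tested, and 24 were higher and 0 lower, with a median of 2.32. Over all 28, 24 lay in GC-named libraries above every other-named library. Only 14 passed the abundance filter without the GC-named level, and 13 of those were called. Their summed level ran from 26.9 to 35.6 CPM in other-named and from 96.0 to 200.1 CPM in GC-named libraries. In such bulk RNA, fewer cells of a type and less RNA per cell cannot be told apart.

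Cd3e, the invariant T cell receptor chain, was at 0.949, 1.78, 0.419 and 0.892 CPM in the other-named libraries and 6.07, 6.17, 3.51, 9.17 and 6.92 CPM in the GC-named libraries (log2 difference 2.64 ± 0.35 (SE; adjusted p = 0.000486)). Cd8a, the cytotoxic co-receptor, was at 1.80, 1.66, 1.32 and 0.686 CPM in the other-named libraries and 4.21, 5.88, 1.98, 6.72 and 7.86 CPM in the GC-named libraries (log2 difference 1.93 ± 0.39 (SE; adjusted p = 0.00592)). Itgae, the CD103 integrin that binds E-cadherin, was at 4.45, 2.63, 3.53 and 3.50 CPM in the other-named libraries and 9.16, 8.61, 6.44, 13.9 and 9.73 CPM in the GC-named libraries (log2 difference 1.43 ± 0.22 (SE; adjusted p = 0.000742)). The groups did not overlap for these 3, although the spread within GC-named libraries was wide for Cd3e and Cd8a. Rgs1 (ENSMUSG00000026358.13, chr1:144242296-144249242), a brake on chemokine signalling in resident T cells, was at 0.999, 0.687, 0.539 and 0.480 CPM in the other-named libraries and 20.1, 13.1, 10.8, 21.4 and 19.8 CPM in the GC-named libraries, a 24.3-fold difference (log2 4.60 ± 0.29 (SE; adjusted p = 2.14e-06)). Cd69, an early activation and residency marker, was at 0.250, 0.115, 0.299 and 0.137 CPM in the other-named libraries and 3.78, 3.03, 1.79, 5.33 and 3.24 CPM in the GC-named libraries (log2 difference 4.04 ± 0.40 (SE; adjusted p = 3.82e-05)). For both, each GC-named library had several times the highest other-named value. Il2rb, a receptor chain shared by cytokines that sustain T and NK cells, was at 1.698, 1.37, 1.26 and 1.65 CPM in the other-named libraries and 7.86, 6.00, 5.99, 11.2 and 7.80 CPM in the GC-named libraries (log2 difference 2.37 ± 0.22 (SE; adjusted p = 2.14e-05)). The chemokine gene Xcl1 was at 0.573 to 0.899 against 2.30 to 7.51 CPM (log2 2.87 ± 0.34 (SE; adjusted p = 0.000148)) and Sh2d2a, a T cell adaptor, at 0.229 to 0.479 against 1.98 to 3.93 CPM (log2 3.10 ± 0.30 (SE; adjusted p = 3.25e-05)). Granzyme transcripts overlapped between the groups. Gzma was at 0.799, 3.04, 0.958 and 1.44 CPM in the other-named libraries and 7.18, 6.59, 2.30, 1.97 and 8.42 CPM in the GC-named libraries (log2 difference 1.76 ± 0.56 (SE; adjusted p = 0.0511)), and Gzmb at 0.799, 1.60, 0.778 and 0.755 CPM in the other-named libraries and 3.65, 3.92, 1.47, 1.17 and 5.30 CPM in the GC-named libraries (log2 difference 1.63 ± 0.47 (SE; adjusted p = 0.0316)). The Gzmb call was lost without other-named replicate 1, 3 or 4 or GC-named replicate 5, 6 or 9 (log2 1.36 to 1.57, adjusted p = 0.057 to 0.0916), without the filter (0.112) and with the length trend removed (0.0513). Gzma passed among libraries with Y-linked counts (log2 2.32, adjusted p = 0.0111), with DESeq2 (0.018), with limma voom (0.0213) and without other-named replicate 2 (0.0311) or GC-named replicate 7 (0.0308) or 8 (0.0243).

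Genes of leukocyte cytoskeleton and migration were called higher in 22 of 29 cases and lower in 0, with a median of 2.13; 22 passed the filter without the GC-named level and 15 of those were called. Ptprc (ENSMUSG00000026395.16, chr1:138062861-138175708), the pan-leukocyte phosphatase CD45, was at 5.99, 5.73, 4.07 and 5.76 CPM in the other-named libraries and 23.2, 20.96, 19.4, 31.9 and 22.5 CPM in the GC-named libraries (log2 difference 2.13 ± 0.16 (SE; adjusted p = 5.15e-06)). Arhgap45, a GTPase-activating protein also known as the minor histocompatibility antigen HMHA1, was at 3.95, 2.58, 2.93 and 2.68 CPM in the other-named libraries and 16.8, 16.6, 13.7, 22.97 and 15.8 CPM in the GC-named libraries (log2 difference 2.49 ± 0.18 (SE; adjusted p = 2.35e-06)). Itgb7, the beta chain that pairs with Itgae, was at 0.999, 1.37, 1.26 and 0.892 CPM in the other-named libraries and 5.88, 8.37, 4.46, 7.99 and 8.61 CPM in the GC-named libraries (log2 difference 2.63 ± 0.24 (SE; adjusted p = 1.57e-05)). Each of the 3 was several-fold higher in every GC-named library. The beta-2 integrin gene Itgb2 was at 0.718 to 1.40 against 3.71 to 6.66 CPM (log2 2.07 ± 0.24 (SE; adjusted p = 9.89e-05)), the formin Fmnl1 at 1.02 to 1.51 against 4.27 to 7.67 CPM (log2 2.36 ± 0.21 (SE; adjusted p = 1.45e-05)) and the tetraspanin Cd53 at 0.344 to 0.549 against 2.49 to 3.73 CPM (log2 2.87 ± 0.24 (SE; adjusted p = 8.33e-06)). In the 700 series 21 of 25 T and NK members and 16 leukocyte members were higher, and in the 800 series 20 of 26 and 19. With the non-epithelial score as a term, which is built partly from these genes, 0 of either list passed.

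**Figure D2:**
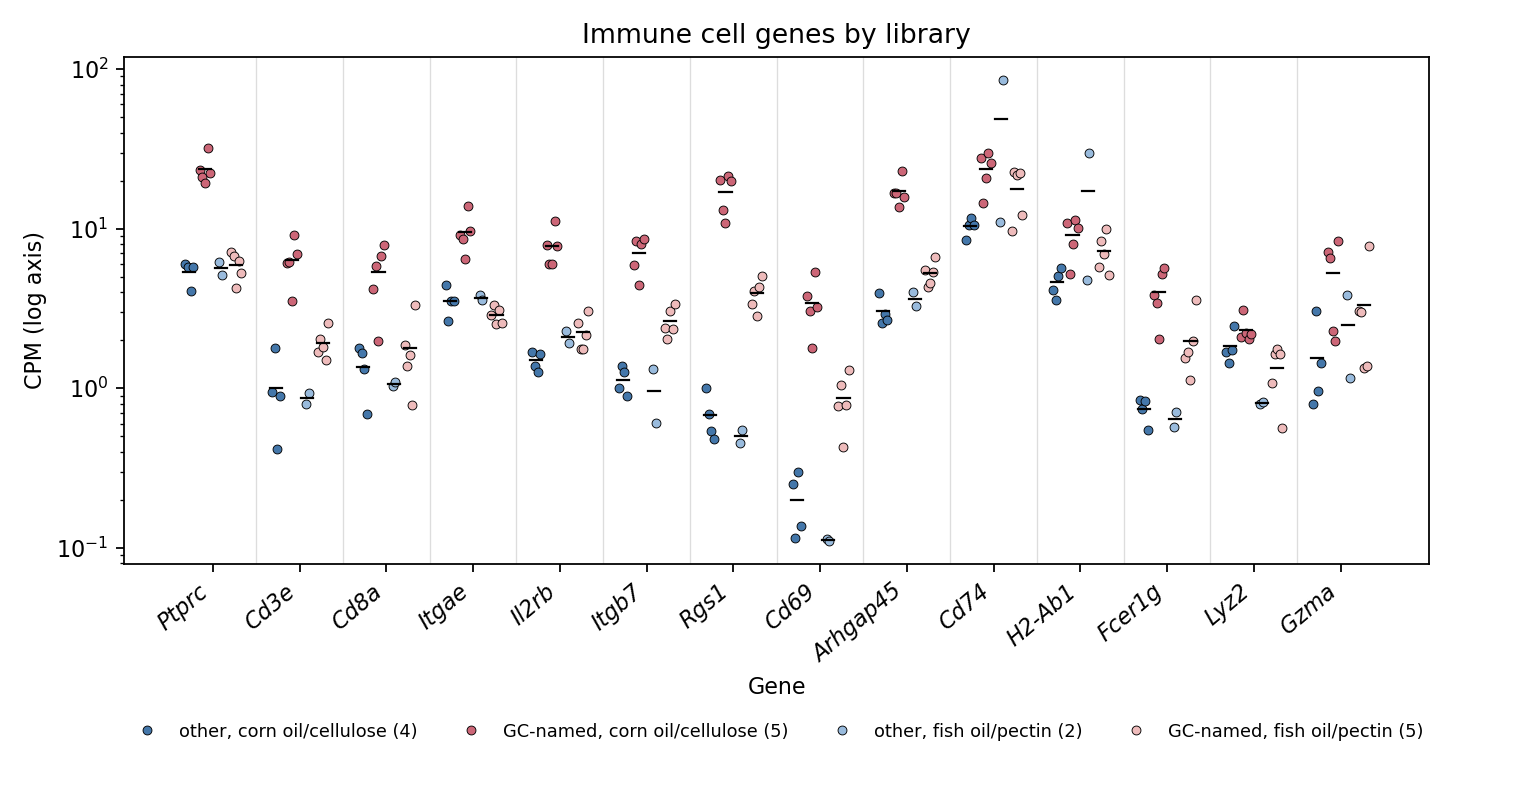
CPM (log axis) of 14 leukocyte and antigen presentation genes in each library of the 4 groups, with a point per library and a bar at each group mean. In corn oil/cellulose, Ptprc, Arhgap45, Il2rb, Rgs1 and Cd69 are apart between the name forms, whereas Gzma and Lyz2 overlap.

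Other leukocyte lists were sparse. Of 14 B and plasma cell markers 4 could be tested, and 0 were called by edgeR, by DESeq2 or at an unadjusted p under 0.05. The 4 were Blnk (107 to 139 CPM), Sdc1 (243 to 286 CPM), and Igkc and Igha, both at 0.319 to 1.55 CPM. The other 10 were below the filter, so the list says little about these cells. Macrophage and myeloid markers had 4 higher and 0 lower of 10 tested (20 listed), with a median of 0.53. Of these, 6 passed the abundance filter without the GC-named level, and 2 of the 6 were called. Cd163 was at 0 in all corn oil/cellulose libraries. Fcer1g, a signalling chain shared by myeloid and NK cells, was at 0.849, 0.745, 0.838 and 0.549 CPM in the other-named libraries and 3.84, 3.44, 2.04, 5.17 and 5.68 CPM in the GC-named libraries (log2 difference 2.41 ± 0.31 (SE; adjusted p = 0.000221)), and its partner Tyrobp was at 0.343 to 0.599 against 1.08 to 2.08 CPM (log2 1.74 ± 0.27 (SE; adjusted p = 0.000779)). Lyz2, the macrophage lysozyme, was at 1.698, 1.43, 1.74 and 2.47 CPM in the other-named libraries and 2.11, 3.09, 2.23, 2.03 and 2.18 CPM in the GC-named libraries with overlapping groups (log2 difference 0.35 ± 0.21 (SE; adjusted p = 0.25)). Mast cell and eosinophil markers had 2 higher of 4 tested (13 listed), the mucosal proteases Mcpt1, at 2.92 to 4.43 against 6.11 to 13.1 CPM (log2 1.51 ± 0.23 (SE; adjusted p = 0.000731)), and Mcpt2, at 1.10 to 2.45 against 2.97 to 5.54 CPM (log2 1.5 ± 0.27 (SE; adjusted p = 0.00187)), which are close in sequence.

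Antigen presentation genes differed by less. MHC class II genes were higher in 5 of 8 tested and lower in 0, with a median of 0.92. Cd74, the invariant chain, was at 8.49, 10.5, 11.7 and 10.6 CPM in the other-named libraries and 27.7, 14.4, 20.8, 29.6 and 25.7 CPM in the GC-named libraries (log2 difference 1.20 ± 0.19 (SE; adjusted p = 0.00181)), and H2-Ab1, a class II beta chain, was at 4.15, 3.55, 5.09 and 5.69 CPM in the other-named libraries and 10.8, 5.16, 7.97, 11.4 and 10.04 CPM in the GC-named libraries (log2 difference 0.98 ± 0.22 (SE; adjusted p = 0.00885)). The groups were apart for Cd74 and overlapped for H2-Ab1, where GC-named replicate 6 (5.16 CPM) was below other-named replicate 4 (5.69 CPM). In the fit of all 16 libraries 0 class II genes were called, with adjusted p = 0.102 for Cd74 and 0.125 for H2-Ab1 at the same log2 differences. In the 700 series alone neither passed (adjusted p = 0.099 and 0.129). MHC class I genes were higher in 10 of 15 and lower in 0, with a median of 0.25. The count was 6 without other-named replicate 2 or with the length trend removed, and 5 in the fit of all 16 libraries and among libraries with Y-linked counts. Among them were the near-identical class Ib genes H2-Q6, at 0.618 to 1.15 against 2.68 to 3.99 CPM (log2 1.91 ± 0.21 (SE; adjusted p = 7.6e-05)), and H2-Q7, at 2.35 to 3.04 against 4.97 to 10.6 CPM (log2 1.37 ± 0.22 (SE; adjusted p = 0.00112)). Nlrc5, the class I transactivator, was at 0.686 to 0.838 against 1.98 to 4.80 CPM (log2 1.96 ± 0.30 (SE; adjusted p = 0.000719)), and Psmb10, an immunoproteasome subunit, at 100.5 to 114 against 133 to 142 CPM (log2 0.36 ± 0.053 (SE; adjusted p = 0.000639)), not called in the fit of all 16 libraries (adjusted p = 0.165). Interferon-stimulated genes were higher in 6 of 27 (22.2%, against 10.7% of all genes) and lower in 0. However, 2 were higher without other-named replicate 1, 2 or 4, 1 among libraries with Y-linked counts and 0 in the fit of all 16. Of the 27, 23 passed the abundance filter without the GC-named level, and 4 of these were called.

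Markers of other tissue layers were mostly too low to test. Fibroblast markers had 4 of 16 autosomal members tested, with summed levels of 16.8 to 22.2 CPM in other-named and 24.0 to 45.2 CPM in GC-named libraries. By edgeR, 2 were higher, Thy1 (log2 2.53, adjusted p = 0.000161) and Vim (1.09, adjusted p = 0.000601). Pdgfrb (0.23, adjusted p = 0.336) and Fn1 (0.26, adjusted p = 0.745) were not called. All 4 had positive log2 differences, but 12 of the 16 were below the filter. The list therefore cannot show whether fibroblast genes differed as a set. Smooth muscle had 2 of 10 tested, endothelium 3 of 11, and enteric neurons and glia 3 of 10, with 0 called in each by edgeR, by DESeq2 or at an unadjusted p under 0.05. No red blood cell gene was abundant enough to test. Cnn1 and Lmod1 (smooth muscle), Cdh5 (endothelium), and Sox10 (glia) were at 0 in all corn oil/cellulose libraries. Summed levels overlapped between the forms for muscle (111 to 128.5 CPM other-named, 105 to 119 CPM GC-named) and endothelium (8.88 to 11.6 and 9.35 to 11.5 CPM). Most of the muscle sum was Mylk, at 91.5 to 109.9 CPM in other-named and 85.5 to 102.6 CPM in GC-named libraries. That sum therefore says little about the rest of the muscle list.

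Epithelial genes moved in both directions and by little. Of 249 tested members of 13 lists, 39 were higher (15.7%, against 10.7% of all genes) and 18 lower (7.23%, against 10.3%), with a median log2 difference of 0.013. Absorptive markers leaned up and goblet markers down.

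Mature absorptive colonocyte genes were higher in 13 of 32 and lower in 1, with a median of 0.29. The count of higher members was 8, 6 and 7 without other-named replicate 1, 2 or 4, 8 among libraries with Y-linked counts, 7 without the abundance filter, 6 with the length trend removed and 5 in the fit of all 16 libraries. Muc3, a transmembrane mucin of the surface, was at 886, 1029, 1164 and 1029.8 CPM in the other-named libraries and 1373, 1708, 1594, 1489 and 1412 CPM in the GC-named libraries (log2 difference 0.56 ± 0.089 (SE; adjusted p = 0.000913)). Cdhr5, a brush border protocadherin, was at 773 to 910.4 against 976 to 1146 CPM (log2 0.34 ± 0.071 (SE; adjusted p = 0.00519)), and Slc51b, a basolateral bile acid exporter subunit, at 30.9 to 43.9 against 47.4 to 74.5 CPM (log2 0.66 ± 0.15 (SE; adjusted p = 0.0103)). Both were apart between the groups. Slc51b was not called in the fit of all 16 libraries (adjusted p = 0.125), with the Y-linked level as a term (0.073) or without the filter (0.0511). Several classical transport genes were not called in the whole comparison: Car1, a carbonic anhydrase, was at 5408, 4057, 4159 and 4151 CPM in the other-named libraries and 6678, 4632, 4387, 3886 and 6770.0 CPM in the GC-named libraries (log2 difference 0.24 ± 0.18 (SE; adjusted p = 0.353)), and Slc26a3, the chloride-bicarbonate exchanger, at 596, 639, 643 and 581 CPM in the other-named libraries and 784, 818, 1083, 629.6 and 673 CPM in the GC-named libraries (log2 difference 0.37 ± 0.14 (SE; adjusted p = 0.0745)). Among libraries with Y-linked counts alone, however, Car1 was higher by 0.60 (adjusted p = 0.00909), and with the Y-linked level as a term likewise by 0.60 (adjusted p = 0.0097). Slc26a3 passed with DESeq2 (adjusted p = 0.0295), limma voom (0.0429) and without GC-named replicate 8 (0.0266). Car4, another carbonic anhydrase, was at 305 to 442 against 411 to 741 CPM (log2 0.51 ± 0.18 (SE; adjusted p = 0.0684)), with 0.19 (adjusted p = 0.387) among libraries with Y-linked counts. It passed with DESeq2 (adjusted p = 0.0114), limma voom (0.0379) and without GC-named replicate 5 (0.0317). Aqp8, a water channel, was at 178 to 268 against 156 to 335 CPM (log2 -0.026 ± 0.22 (SE; adjusted p = 0.947)). Krt20, the keratin of mature surface cells, was at 629.7 to 730.03 against 739 to 980.3 CPM (log2 0.28 ± 0.086 (SE; adjusted p = 0.0355)). The Krt20 call was lost with total count scaling (adjusted p = 0.052), all 16 libraries in the fit (0.252), the Y-linked level as a term (0.165) or the length trend removed (log2 0.17, adjusted p = 0.221), and among libraries with Y-linked counts (0.0578). It was also lost without other-named replicate 2, 3 or 4 or GC-named replicate 5 (log2 0.24 to 0.29, adjusted p = 0.0584 to 0.104). Scnn1g, a subunit of the epithelial sodium channel, was at 1.20, 0.401, 3.11 and 2.68 CPM in the other-named libraries and 6.93, 6.59, 11.99, 2.98 and 4.74 CPM in the GC-named libraries with overlapping groups (log2 difference 1.87 ± 0.54 (SE; adjusted p = 0.0355)). The Scnn1g call was lost without other-named replicate 1, 2 or 4 or GC-named replicate 5, 6 or 7 (log2 1.53 to 2.09, adjusted p = 0.0539 to 0.102), without the filter (0.115), among libraries with Y-linked counts (0.109) and with the length trend removed (0.0512).

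Brush border genes were higher in 8 of 21 and lower in 0, with a median of 0.18. Eps8l2, an actin regulator of microvilli, was at 283, 268, 274 and 293 CPM in the other-named libraries and 369, 432, 468, 379 and 378 CPM in the GC-named libraries (log2 difference 0.53 ± 0.076 (SE; adjusted p = 0.000455)), and Ush1c, the harmonin scaffold of intermicrovillar links, at 284, 249.8, 273 and 271 CPM in the other-named libraries and 354, 367, 340.5, 334 and 354 CPM in the GC-named libraries (log2 difference 0.37 ± 0.057 (SE; adjusted p = 0.000733)). Vil1, the actin bundler villin, was at 846 to 898 against 1005 to 1199 CPM (log2 0.33 ± 0.064 (SE; adjusted p = 0.00327)). Every GC-named library was above every other-named library for these 3. Keratins were higher in 4 of 6 tested and lower in 0: Krt19 was at 3922, 4119, 4165 and 3978 CPM in the other-named libraries and 5170.3, 5103, 5419, 5449.8 and 4943 CPM in the GC-named libraries (log2 difference 0.36 ± 0.065 (SE; adjusted p = 0.00191)), and Krt8 was at 3989 to 4260.1 against 4650.2 to 5306 CPM (log2 0.27 ± 0.067 (SE; adjusted p = 0.013)). The Krt8 difference fell to 0.16 with the length trend removed (adjusted p = 0.12) and was not called with the Y-linked level as a term (adjusted p = 0.0708). With the length trend removed, as in the fit of all 16 libraries, 2 keratins were called. Junction genes had 6 higher and 2 lower of 26 (23.1% and 7.69%, against 10.7% and 10.3% of all genes), with a median of 0.05.

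Goblet cell genes were lower in 7 of 22 tested and higher in 0, with a median of -0.36 and 0 positive values. Fcgbp, a mucus-linking protein, was at 1824, 1754, 1420.3 and 1428 CPM in the other-named libraries and 805, 747, 1290.1, 1109 and 1074 CPM in the GC-named libraries (log2 difference -0.68 ± 0.16 (SE; adjusted p = 0.0123)). Zg16, a lectin of the mucus that binds bacteria, was at 827, 1015, 608 and 725 CPM in the other-named libraries and 314, 384, 423, 409 and 533 CPM in the GC-named libraries (log2 difference -0.95 ± 0.17 (SE; adjusted p = 0.00363)). Ern2, the goblet cell sensor of unfolded mucin, was at 143, 163, 123 and 153 CPM in the other-named libraries and 91.8, 99.7, 101, 115 and 97.5 CPM in the GC-named libraries (log2 difference -0.53 ± 0.083 (SE; adjusted p = 0.000864)). For these 3 all GC-named libraries lay below all other-named libraries. Muc2, the gel-forming mucin itself, was at 2527, 4685, 1739 and 2352 CPM in the other-named libraries and 1125, 1277, 1273, 2065 and 1669 CPM in the GC-named libraries, with overlapping groups, a wide spread among other-named libraries and a log2 difference of -0.93 ± 0.29 (SE; adjusted p = 0.0535). Sytl2, a granule tether, was at 50.3 to 78.2 against 38.4 to 53.6 CPM (log2 -0.55 ± 0.12 (SE; adjusted p = 0.00912)). The goblet count differed between the number series, with 8 lower in the 700 series and 0 in the 800 series. It was 4 without other-named replicate 1 or 2 or GC-named replicate 6, and 11 without GC-named replicate 8. Fcgbp missed the threshold without the filter (adjusted p = 0.064) and Zg16 among libraries with Y-linked counts (adjusted p = 0.1). Muc2 passed with total count scaling (adjusted p = 0.0493), DESeq2 (0.0325), limma voom (0.014) and without other-named replicate 3 (0.0218) or GC-named replicate 8 (0.0396). It had a log2 difference of -1.59 in the 700 series (adjusted p = 0.0469) and -0.29 in the 800 series (adjusted p = 0.503).

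**Figure D3:**
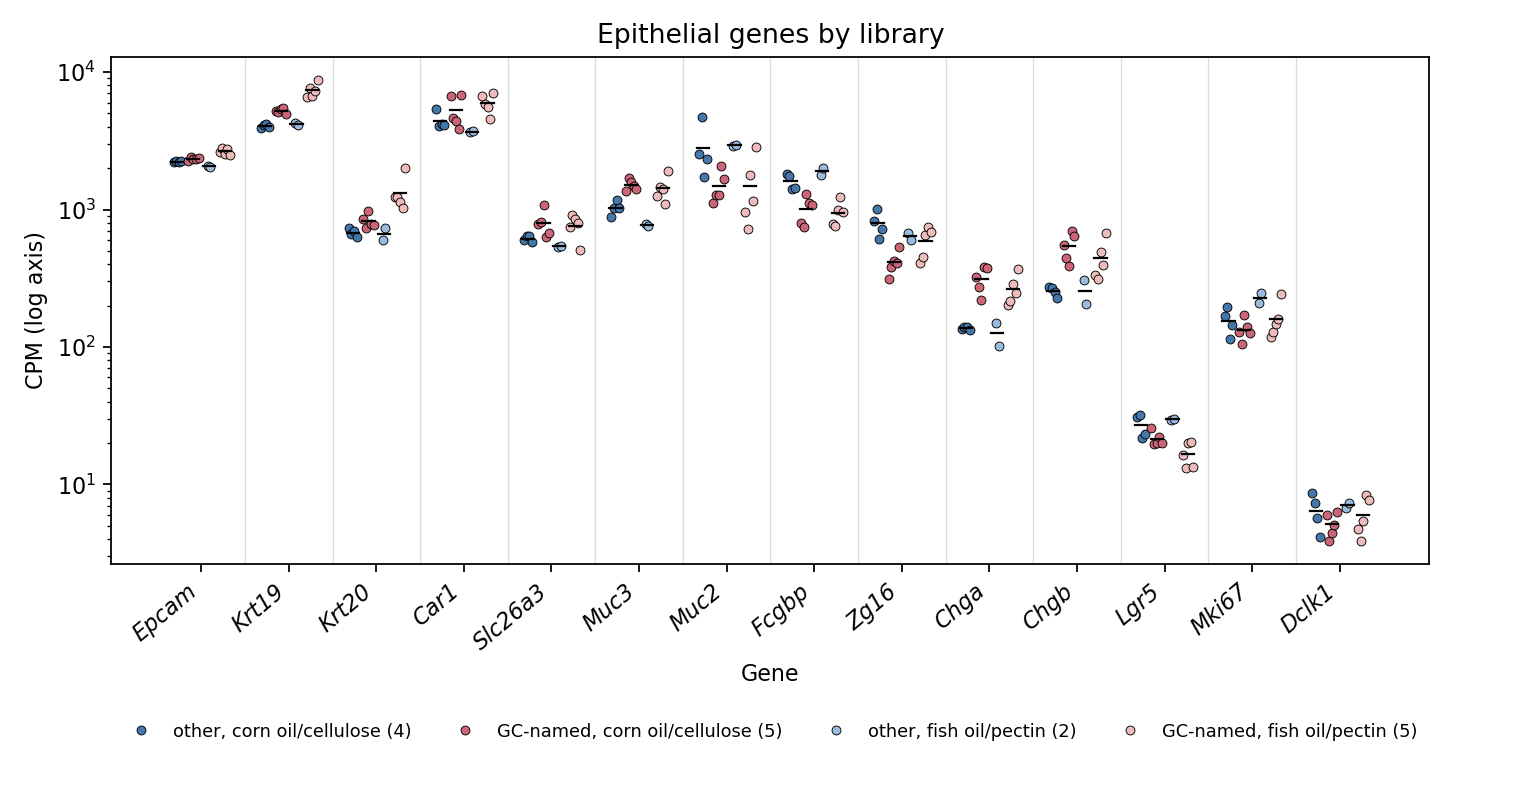
CPM (log axis) of 14 epithelial genes in each library of the 4 groups, with a point per library and a bar at each group mean. Krt19, Krt20, Muc3, Chga and Chgb lie higher and Fcgbp and Zg16 lower in corn oil/cellulose GC-named libraries, whereas Epcam, Car1, Lgr5, Mki67 and Dclk1 overlap.

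Enteroendocrine genes had 3 higher (15%, against 10.7% of all genes) and 0 lower of 20, with a median of 0.52 and 18 positive values. They had 9 higher without GC-named replicate 7, 8 among libraries with Y-linked counts and 5 in the fit of all 16. Chga, the granule protein chromogranin A, was at 136, 139, 141 and 134 CPM in the other-named libraries and 323, 273, 220.0, 383 and 377 CPM in the GC-named libraries (log2 difference 1.20 ± 0.15 (SE; adjusted p = 0.000447)), and Chgb, chromogranin B, at 273, 268, 252 and 226 CPM in the other-named libraries and 548, 441, 389.8, 702 and 642 CPM in the GC-named libraries (log2 difference 1.09 ± 0.17 (SE; adjusted p = 0.00156)). Other-named libraries were close together for both and GC-named libraries scattered above them. Tph1, the serotonin-synthesising hydroxylase of enterochromaffin cells, was at 33.1 to 42.1 against 55.2 to 78.8 CPM (log2 0.73 ± 0.11 (SE; adjusted p = 0.000855)). Tuft cell markers had 3 higher of 14 tested (18 listed), 21.4% against 10.7% of all genes. Of the 14, 12 passed the abundance filter without the GC-named level, and 2 of these were called. The count of higher tuft markers was 0 without other-named replicate 1 or 3 or GC-named replicate 8. It was 1 without other-named replicate 2 or 4 or GC-named replicate 5, 7 or 9, and 1 with total count scaling, without the filter or with the length trend removed. Sh2d6 was at 6.54 to 9.74 against 9.75 to 23.9 CPM (log2 1.02 ± 0.28 (SE; adjusted p = 0.0265)), a call lost without other-named replicate 1, 3 or 4 or GC-named replicate 8 (adjusted p = 0.0572 to 0.0794) or without the filter (0.101). Dclk1, the marker kinase, was at 4.12 to 8.64 against 3.86 to 6.30 CPM with overlap (log2 -0.34 ± 0.21 (SE; adjusted p = 0.271)).

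Stem cell and proliferation genes differed little. Stem and crypt base genes had 1 higher (5.26%, against 10.7% of all genes) and 3 lower (15.8%, against 10.3%) of 19 tested. There were 0 lower without other-named replicate 1, 2 or 4 and 1 lower without GC-named replicate 6 or 9. There were also 0 lower in the fit of all 16 libraries, with the length trend removed or among libraries with Y-linked counts. Lgr5, the stem cell receptor for R-spondins, was at 30.8, 32.1, 21.9 and 23.2 CPM in the other-named libraries and 25.6, 19.7, 20.1, 22.1 and 20.1 CPM in the GC-named libraries with overlapping groups (log2 difference -0.33 ± 0.13 (SE; adjusted p = 0.0773)). Lgr5 passed without other-named replicate 3 (adjusted p = 0.0314) or GC-named replicate 5 (adjusted p = 0.0424). Of the ubiquitin ligases that clear Wnt receptors, Rnf43 was at 57.4 to 65.6 against 70.8 to 76.4 CPM (log2 0.24 ± 0.055 (SE; adjusted p = 0.00885)) and Znrf3 at 19.2 to 23.4 against 14.2 to 19.1 CPM (log2 -0.35 ± 0.10 (SE; adjusted p = 0.0208)). The Znrf3 call was lost without other-named replicate 1, 2 or 4 (adjusted p = 0.0561 to 0.06), with all 16 libraries (0.0925) or the length trend removed (0.0518), and among libraries with Y-linked counts (0.089), where Rnf43 was not called either (0.0853). S phase genes had 0 of 23 called by edgeR or DESeq2 and 3 lower at an unadjusted p under 0.05, with 1 or 2 called lower when GC-named replicate 7 or other-named replicate 4 was left out. G2 and M phase genes had 2 lower of 24 (8.33%, against 10.3% of all genes), Hmmr and Kif11. They had 4 lower without other-named replicate 3 or GC-named replicate 7, 1 without GC-named replicate 8 and 0 without any of the others. Hmmr, a spindle protein, was at 16.3 to 27.4 against 10.9 to 17.5 CPM (log2 -0.61 ± 0.17 (SE; adjusted p = 0.0258)) and Kif11, a spindle motor, at 46.5 to 73.7 against 32.5 to 53.2 CPM (log2 -0.53 ± 0.16 (SE; adjusted p = 0.0399)). The Hmmr call was lost without other-named replicate 1, 2 or 4 or GC-named replicate 5, 6 or 9 (adjusted p = 0.0532 to 0.0632), and the Kif11 call without any of these or GC-named replicate 8 (adjusted p = 0.0565 to 0.09). Without the filter neither was called (adjusted p = 0.0658 for Hmmr and 0.134 for Kif11). Mki67, the proliferation antigen, was at 114 to 195 against 105 to 169.6 CPM (log2 -0.22 ± 0.17 (SE; adjusted p = 0.385)).

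Epithelial transcription factors had 3 higher and 3 lower of 26 (11.5% each, near the 10.7% and 10.3% of all genes), with a median near 0. In all, 2 or 3 were called without other-named replicate 1, 2 or 4 or GC-named replicate 6 or 9. The fit of all 16 libraries called 1 higher and 1 lower, and the libraries with Y-linked counts 0 and 1. Hnf4g, a nuclear receptor of enterocyte genes, was at 41.4 to 46.6 against 27.2 to 36.3 CPM (log2 -0.48 ± 0.08 (SE; adjusted p = 0.00135)). Region markers had 1 higher of 17 (5.88%, against 10.7% of all genes). This was Prdx6, a peroxiredoxin that reduces lipid peroxides, at 1387 to 2363 against 2632 to 3999 CPM (log2 0.77 ± 0.18 (SE; adjusted p = 0.0121)). The Prdx6 call was lost without the filter (adjusted p = 0.0608), in the fit of all 16 libraries (0.0788), with the Y-linked level as a term (log2 0.51, adjusted p = 0.119) and among libraries with Y-linked counts (log2 0.53, adjusted p = 0.0919). Hoxd13, a homeobox gene of the distal colon, was at 42.0, 25.3, 100.1 and 78.3 CPM in the other-named libraries and 62.3, 77.5, 101, 55.1 and 76.9 CPM in the GC-named libraries with overlapping groups (log2 difference 0.28 ± 0.39 (SE; adjusted p = 0.649)). Antimicrobial and microbiota-responsive epithelial genes had 1 higher and 1 lower of 21 tested (4.76% each, against 10.7% and 10.3% of all genes). They had 4 lower without GC-named replicate 7. Of ferroptosis genes, Gpx4, which reduces lipid peroxides in membranes, was at 56.4, 53.9, 70.2 and 60.7 CPM in the other-named libraries and 75.5, 72.8, 66.4, 66.4 and 73.3 CPM in the GC-named libraries (log2 difference 0.23 ± 0.077 (SE; adjusted p = 0.0484)), with overlap. The call was lost without other-named replicate 1, 2 or 4 or GC-named replicate 5, 6 or 9 (adjusted p = 0.093 to 0.139). It was also lost with total count scaling (adjusted p = 0.0867), with all 16 libraries (0.0986), among libraries with Y-linked counts (0.0702) and with the length trend removed (log2 0.11, adjusted p = 0.309). Fth1, the ferritin heavy chain, was at 1544 to 2049 against 1954 to 2550.0 CPM (log2 0.28 ± 0.10 (SE; adjusted p = 0.0594)). It passed with DESeq2 (adjusted p = 0.0294), limma voom (0.0284), no filter (0.0258) and among libraries with Y-linked counts (0.0313).

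**Figure D4:**
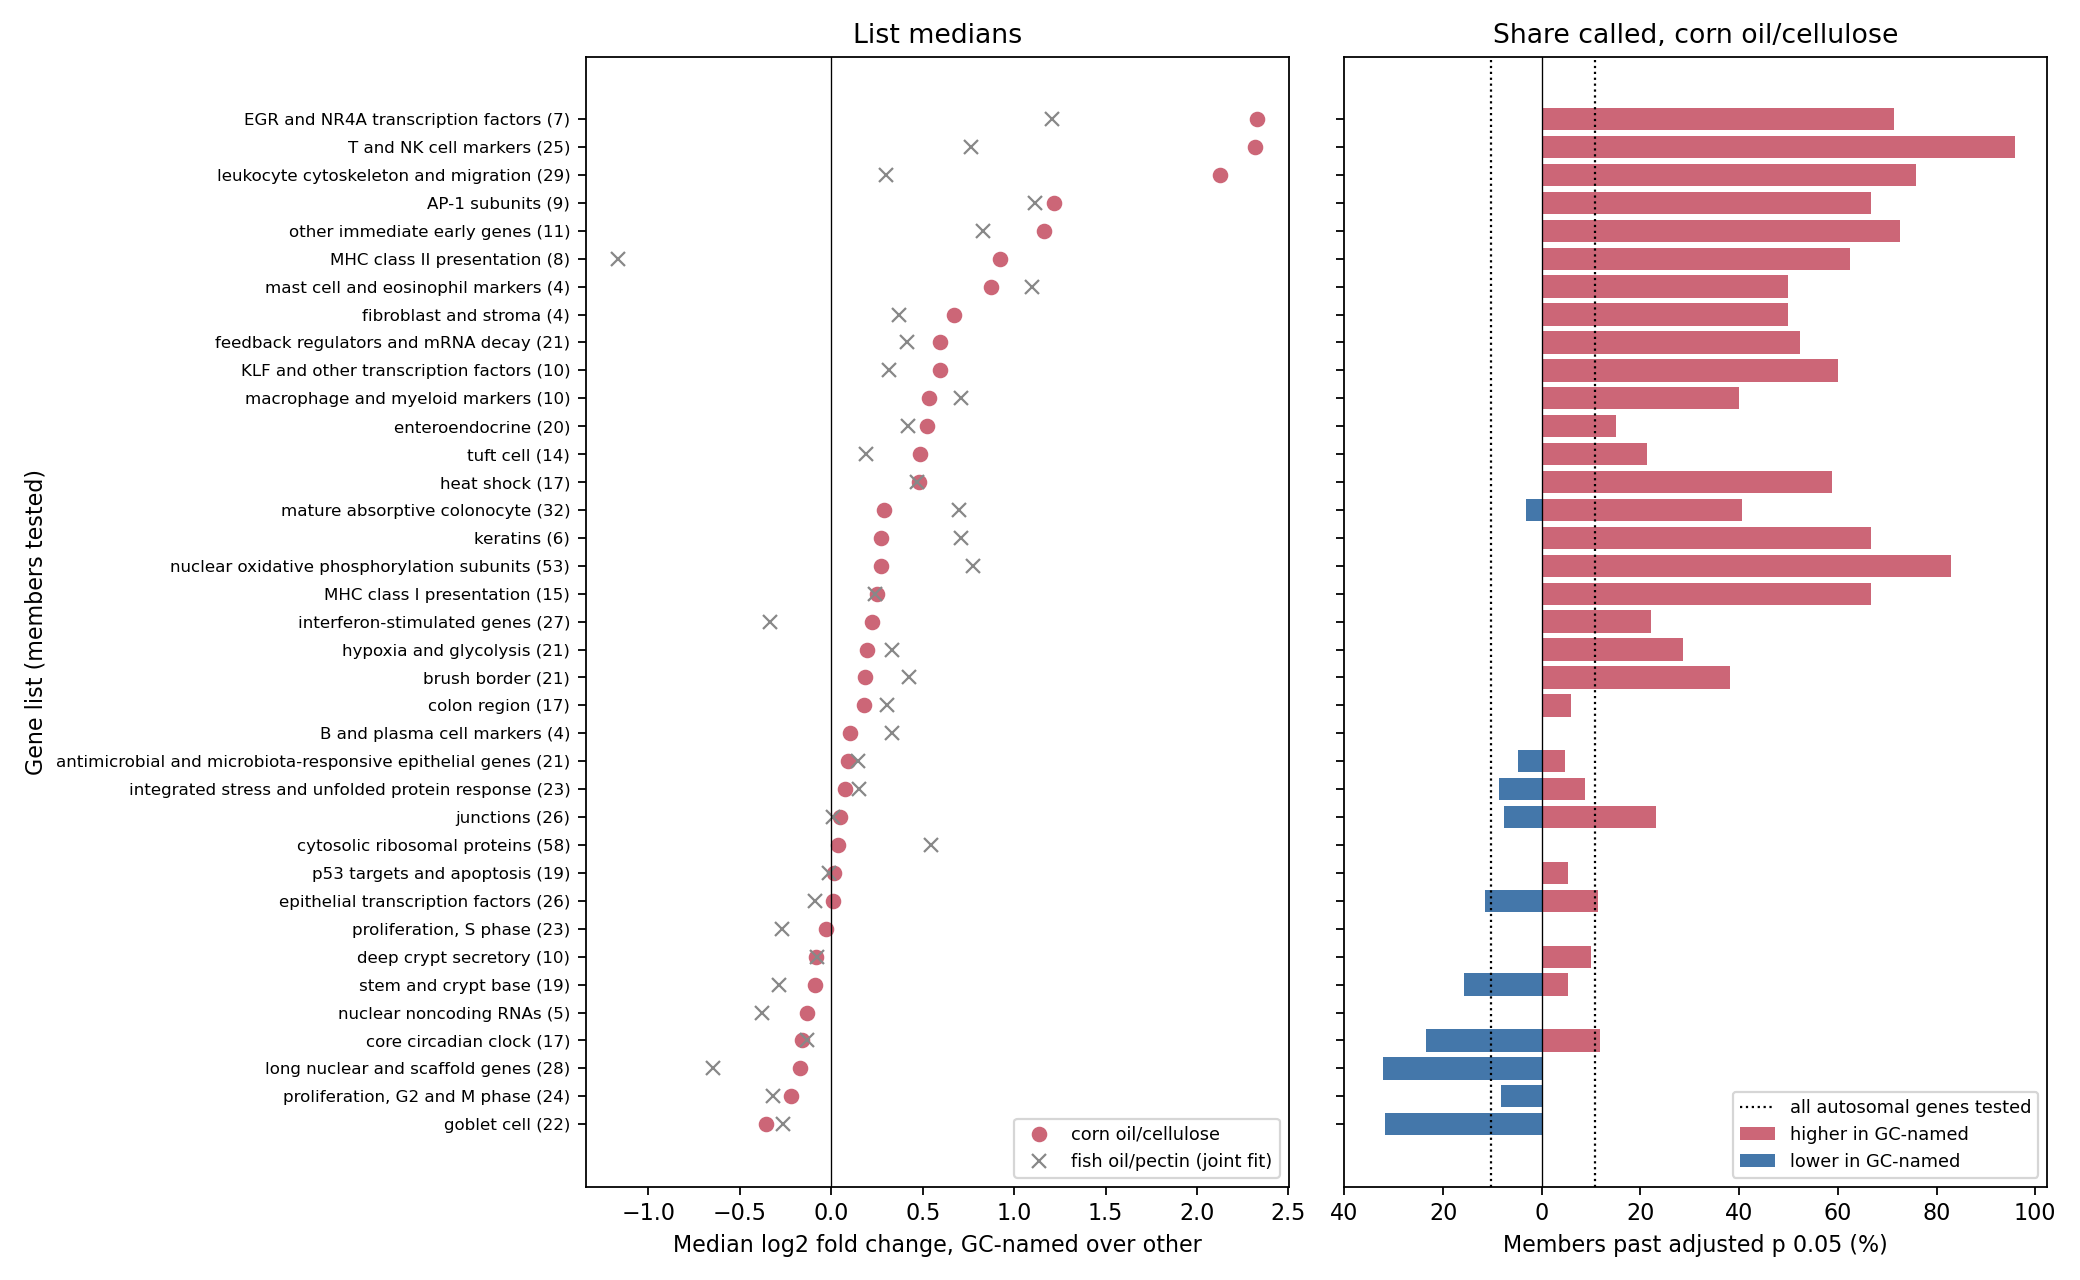
Left, median log2 difference (GC-named over other-named) of the tested members of each gene list in corn oil/cellulose (filled circles) and fish oil/pectin (crosses). Right, percent of tested members called higher or lower in corn oil/cellulose, with dotted lines at the values for all autosomal genes (10.7% and 10.3%).

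Outside the lists, Depp1 (ENSMUSG00000048489.12, chr6:116650609-116652794), a FOXO target induced by fasting, was among the largest increases. It was at 1.45, 0.286, 0.120 and 0.823 CPM in the other-named libraries and 18.0, 12.6, 10.2, 14.6 and 17.0 CPM in the GC-named libraries, a 20.7-fold difference (log2 4.37 ± 0.41 (SE; adjusted p = 0.000103)) with no overlap. Depp1 passed the abundance filter only through the GC-named level, as did Sh2d2a and Cd53 above. Decreases were smaller in size. AI480526 (ENSMUSG00000090086.7, chr5:123133723-123141666) was at 50.4, 48.0, 33.5 and 52.4 CPM in the other-named libraries and 15.3, 20.2, 15.9, 15.3 and 15.5 CPM in the GC-named libraries (log2 difference -1.49 ± 0.13 (SE; adjusted p = 2.27e-05)). Robo2 (ENSMUSG00000052516.19, chr16:73891839-74411825), a receptor for SLIT guidance cues, was at 29.9, 25.9, 37.1 and 40.8 CPM in the other-named libraries and 8.61, 12.6, 13.4, 14.9 and 12.04 CPM in the GC-named libraries (log2 difference -1.44 ± 0.16 (SE; adjusted p = 0.000161)). Fut9 (ENSMUSG00000055373.8, chr4:25609332-25800244), which makes the Lewis X glycan, was at 36.6, 24.3, 47.3 and 46.9 CPM in the other-named libraries and 16.4, 14.8, 19.1, 15.8 and 17.0 CPM in the GC-named libraries (log2 difference -1.22 ± 0.17 (SE; adjusted p = 0.000871)). All 5 GC-named libraries were below all other-named libraries for these 3. Others of the largest decreases had log2 differences between -1.36 and -1.0. Ppy, the gene of pancreatic polypeptide, was at 2.29 to 3.71 against 0.638 to 1.81 CPM, and Slc16a12, a creatine transporter, at 6.47 to 14.4 against 3.56 to 6.72 CPM with overlap. The paralogues Nxpe2 and Nxpe4 were at 141 to 206 against 49.3 to 123 CPM and at 98.9 to 147 against 41.8 to 88.1 CPM, without overlap. Gsta3, a glutathione transferase with close paralogues, was at 12.1 to 20.3 against 3.86 to 9.84 CPM, and Zbtb26, a zinc finger gene, at 9.76 to 12.9 against 4.68 to 5.76 CPM. Fer1l6, of the ferlin family, was at 26.8 to 45.2 against 14.9 to 23.3 CPM, and Lcor, a nuclear receptor corepressor, at 33.3 to 42.9 against 16.4 to 24.3 CPM. The groups were apart for these 4. Among libraries with Y-linked counts Gsta3 had a log2 difference of -0.71 (adjusted p = 0.0625), against -1.08 in all 9. Fer1l6 missed the threshold there (adjusted p = 0.0501). With the Y-linked level as a term Ppy missed it (adjusted p = 0.0574). Etnppl, a phospholyase, was at 1.20 to 3.36 against 0.772 to 1.87 CPM with overlap (log2 -1.02 ± 0.31 (SE; adjusted p = 0.0334)). This call was lost without other-named replicate 1, 2 or 4 or GC-named replicate 5, 6 or 9 (adjusted p = 0.0615 to 0.0944), in the fit of all 16 libraries (0.0578) and among libraries with Y-linked counts (0.0939). AI480526, Robo2, Fut9, Zbtb26 and Lcor kept an adjusted p under 0.05 in each number series alone.

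Long transcripts were lower and short transcripts higher in GC-named libraries. Across 10 groups of equal number by exon length, the median log2 difference went from 0.12 in the shortest (median 975 bases) to 0.025 in the fifth (3781 bases) and -0.15 in the longest (12169 bases). The share called higher went from 15.2% to 3.19%, and the share called lower from 2.97% to 28.2%. Genes called higher had a median exon length of 3035 bases, those called lower 6827.5 bases and the rest 4070 bases. Over 13468 genes, which are not independent replicates, log2 difference and log2 length had a Pearson correlation of -0.16 and a Spearman rank correlation of -0.27.

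For each library, the slope of a gene's deviation from its mean log2 CPM on log2 exon length gives a single value. Other-named libraries had slopes of 0.0512, 0.0395, 0.00914 and 0.0374, and GC-named libraries -0.0404, -0.0225, 0.00379, -0.0359 and -0.0421. The groups were apart, although other-named replicate 3 and GC-named replicate 7 were close to each other. Means were 0.0343 ± 0.0178 (SD, n = 4) and -0.0274 ± 0.0191 (SD, n = 5), a difference of -0.0617 (two-sided exact permutation test, p = 0.0159, where the smallest possible is 0.00794). Without the abundance filter the difference was -0.0104 (exact permutation p = 0.0238), and over coding genes alone -0.101. With each library's length trend removed, 2249 genes passed in place of 2832, 1103 higher and 1146 lower.

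**Figure D5:**
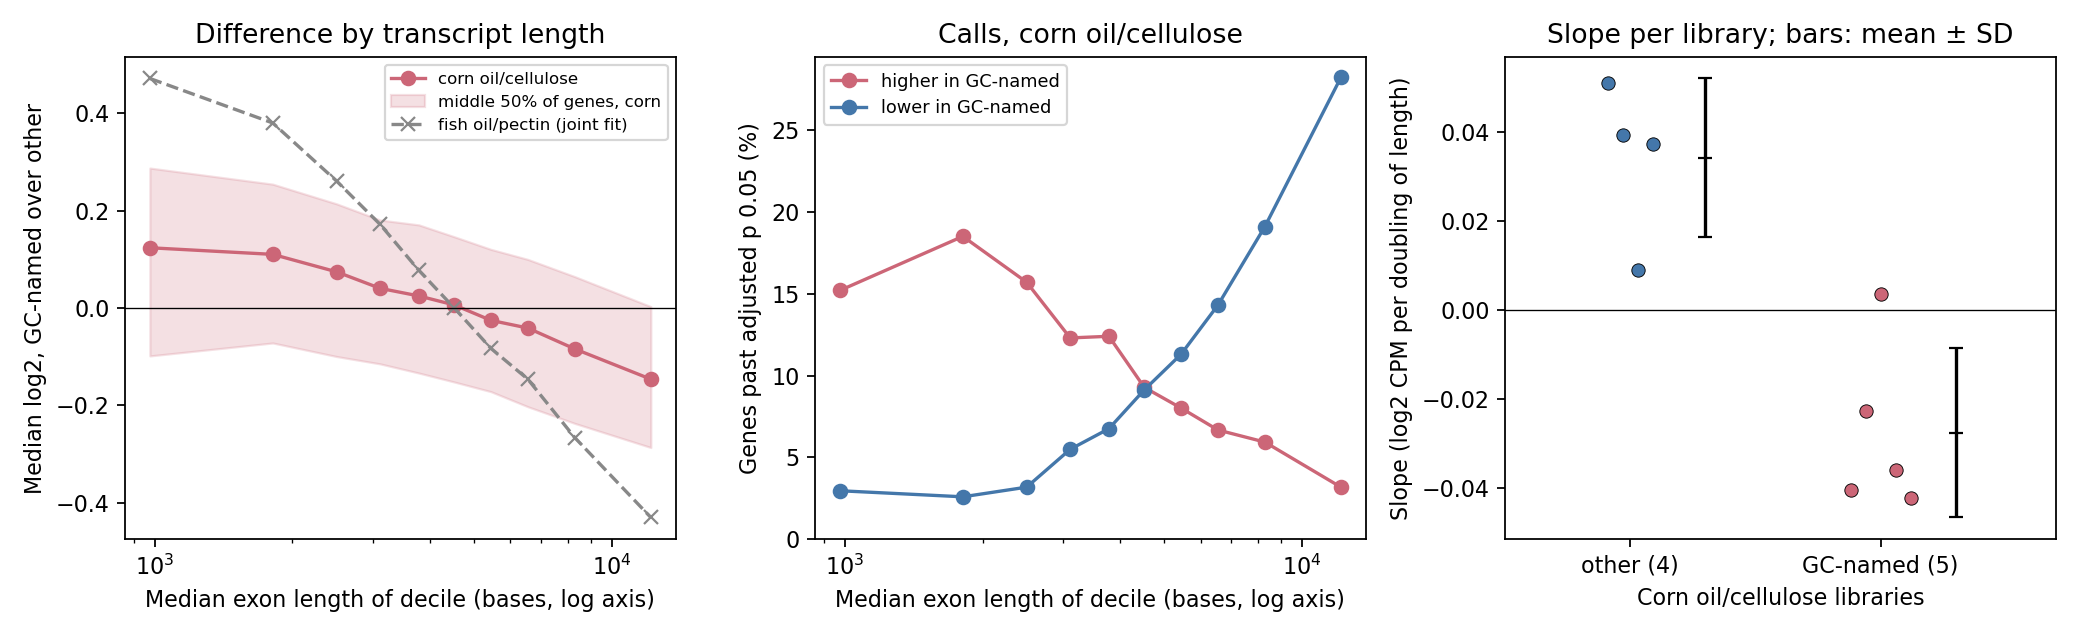
Left, median log2 difference by exon length group (shortest to longest) in corn oil/cellulose, with a band for the middle 50% of genes, and in fish oil/pectin. Middle, percent of genes called higher or lower in each length group. Right, slope of expression on log2 exon length in each corn oil/cellulose library, with mean ± SD: other-named libraries lie between 0.00914 and 0.0512 and GC-named libraries between -0.0421 and 0.00379.

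Gene sets of typical length followed the trend in part. Nuclear genes of oxidative phosphorylation, whose transcripts are short, were higher in 44 of 53 and lower in 0, with a median of 0.27. Ndufb10 (exon length 1217 bases), a complex I subunit, was at 166, 164, 179 and 162 CPM in the other-named libraries and 229.9, 234, 212, 225 and 224 CPM in the GC-named libraries (log2 difference 0.42 ± 0.054 (SE; adjusted p = 0.000217)), and Ndufa3 (1022 bases), another, was at 83.4 to 87.9 against 110.3 to 118 CPM (log2 0.41 ± 0.047 (SE; adjusted p = 0.000103)). Cytosolic ribosomal protein genes, equally short as a class, had 0 of 58 called by edgeR or DESeq2, 2 higher at an unadjusted p under 0.05 and a median of 0.03, with 6 called higher when GC-named replicate 7 was left out and 10 among libraries with Y-linked counts. Long nuclear and scaffold genes were lower in 9 of 28 tested and higher in 0, with a median of -0.17. Vps13c (16299 bases), a lipid transfer protein, was at 101, 82.2, 71.3 and 85.6 CPM in the other-named libraries and 51.9, 48.7, 61.4, 56.3 and 44.5 CPM in the GC-named libraries (log2 difference -0.70 ± 0.11 (SE; adjusted p = 0.00112)). Its relative Vps13b was at 87.2 to 125.96 against 73.4 to 84.5 CPM (log2 -0.48 ± 0.091 (SE; adjusted p = 0.00319)) and Kmt2c, a histone methyltransferase, at 102 to 128 against 77.6 to 102 CPM (log2 -0.40 ± 0.087 (SE; adjusted p = 0.00652)). With the length trend removed the long genes had 5 higher and 4 lower, the log2 differences of Vps13b and Kmt2c were -0.30 and -0.24, and 27 oxidative phosphorylation genes were higher. In the fit of all 16 libraries 5 long genes were lower. Oxidative phosphorylation genes were higher in 9 cases in the 700 series, 3 in the 800 series and 41 among libraries with Y-linked counts, and with the score as a term 0 passed. Of 5 nuclear noncoding RNAs tested, 0 were called by edgeR, by DESeq2 or at an unadjusted p under 0.05.

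The fish oil/pectin libraries gave a second contrast of the same name forms, 5 GC-named against 2 other-named, in a joint fit of all 16 libraries. The 2 contrasts share no library, but they share the estimate of spread. In fish oil/pectin, Y-linked counts were above 100 in 2 of 2 other-named and 1 of 5 GC-named libraries (replicate 3). Xist was at 283 to 385 CPM in GC-named replicates 4 to 7 and at most 9.23 CPM in the rest of that diet. The name form therefore went largely with the Y-linked level there, and the part of that level in this contrast was not tested. In the joint fit 1964 of 14264 autosomal genes (13.8%) differed between the forms in corn oil/cellulose, 1032 (7.23%) higher and 932 (6.53%) lower. In fish oil/pectin 5549 genes (38.9%) differed, 2908 (20.4%) higher and 2641 (18.5%) lower. Genes called in both numbered 1391, which is 70.8% of the corn oil/cellulose calls and 25.1% of the fish oil/pectin calls, and 1385 of them had the same direction. Scaled to total counts alone, 30.1% of 5717 fish oil/pectin calls were higher, against 52.4% with TMM factors, and the median over all genes moved to -0.13. Without other-named replicate 2 of fish oil/pectin the calls there numbered 3057.

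Immediate early and heat shock genes were called higher more often than lower in both diets. In fish oil/pectin 29 of 58 immediate early genes were called higher (median 0.78), where 20.4% of all genes were, and 4 lower, 2 in the KLF list and 2 among feedback regulators, where 18.5% of all genes were. Fos was at 106 to 136 CPM in other-named and 322 to 491 CPM in GC-named libraries of that diet (log2 1.76 ± 0.21 (SE; adjusted p = 2.39e-05)), Jun at 121 to 130.2 CPM and 429.6 to 710.3 CPM (log2 2.13 ± 0.16 (SE; adjusted p = 2.9e-07)) and Dusp1 at 17.3 to 23.4 CPM and 84.8 to 114 CPM (log2 2.27 ± 0.17 (SE; adjusted p = 3e-07)). Hspa1a was at 1.43 to 2.62 CPM and 92.9 to 206 CPM (log2 5.91 ± 0.45 (SE; adjusted p = 2.6e-06)). The difference between the diets in these 4 did not pass the test, at -0.65 ± 0.25 (SE; adjusted p = 0.112) for Fos, -0.58 ± 0.18 (SE; adjusted p = 0.0501) for Jun, -0.58 ± 0.19 (SE; adjusted p = 0.0705) for Dusp1 and -0.78 ± 0.59 (SE; adjusted p = 0.454) for Hspa1a. Of the 101 called genes named in the text, 94 had the same direction in fish oil/pectin and 78 were called there.

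Leukocyte lists differed among themselves in fish oil/pectin. Beside the 20.4% of all genes higher and 18.5% lower there, T and NK markers were higher in 10 of 26 and lower in 0, and leukocyte cytoskeleton genes higher in 3 of 30 and lower in 3. Macrophage and myeloid markers were higher in 3 of 11 and lower in 0, with a median of 0.71 against 0.72 in corn oil/cellulose in the same fit. Mast cell and eosinophil markers were higher in 2 of 5 and lower in 1 (medians 1.10 against 1.04). MHC class II genes were higher in 1 of 8 and lower in 4 (medians -1.17 against 0.92). Of the 2 other-named libraries of that diet, replicate 2 alone was high: Cd74 was at 85.9 CPM there, 11.1 CPM in replicate 1 and 9.71 to 22.6 CPM in GC-named libraries. H2-Ab1 was at 29.9, 4.79 and 5.10 to 9.92 CPM in the same order. H2-Aa (16.7 against 2.79 CPM) and H2-Eb1 (10.5 against 3.53 CPM) were also higher in replicate 2 than in replicate 1. Rgs1 was higher there as well, at 0.456 to 0.550 CPM in other-named and 2.85 to 5.04 CPM in GC-named libraries (log2 2.94 ± 0.40 (SE; adjusted p = 3.74e-05)). So were Cd69 (log2 2.87 ± 0.66 (SE; adjusted p = 0.00251)), Itgb7 (1.47 ± 0.35 (SE; adjusted p = 0.00293)) and Cd3e (1.14 ± 0.44 (SE; adjusted p = 0.0462)). Myeloid and mast cell genes higher there were Fcer1g (log2 1.62 ± 0.48 (SE; adjusted p = 0.0124)), Tyrobp (2.05 ± 0.45 (SE; adjusted p = 0.00164)), Mcpt1 (1.10 ± 0.30 (SE; adjusted p = 0.00792)) and Mcpt2 (1.25 ± 0.39 (SE; adjusted p = 0.0179)). For these 8 the difference between the diets did not pass the test, with adjusted p = 0.0725 for Rgs1 and 0.0974 to 0.801 for the others. By contrast, Ptprc was at 5.11 to 6.21 CPM in other-named and 4.25 to 7.19 CPM in GC-named libraries of that diet (log2 0.066 ± 0.22 (SE; adjusted p = 0.84)) and Arhgap45 at 3.30 to 3.99 CPM and 4.31 to 6.68 CPM (log2 0.54 ± 0.23 (SE; adjusted p = 0.0688)). The groups overlapped for Ptprc and lay close together for Arhgap45, unlike in corn oil/cellulose. The difference between the diets, fish oil/pectin minus corn oil/cellulose, was -2.06 ± 0.28 (SE; adjusted p = 0.00389) for Ptprc and -1.95 ± 0.28 (SE; adjusted p = 0.00637) for Arhgap45. Over all genes 1148 (8.05%) differed in this way, 608 (4.26%) positive and 540 (3.79%) negative, and among leukocyte cytoskeleton genes 16 were negative and 0 positive. Only 5 genes passed without other-named replicate 2 of fish oil/pectin, and Ptprc and Arhgap45 were the 2 named genes that still passed then. Without other-named replicate 1 of that diet the count was 206, and without corn oil/cellulose other-named replicate 3 it was 324.

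Length groups and mitochondrial genes differed in the same direction in fish oil/pectin. The median log2 difference went from 0.47 in the shortest length group to -0.43 in the longest. Oxidative phosphorylation genes were higher in 51 of 53, with 35 passing the test of the difference between diets, and long nuclear genes lower in 22 of 28, with 12 passing it. Ribosomal protein genes, with 0 called in corn oil/cellulose, were higher in 53 of 58 in fish oil/pectin and 40 passed the test of the difference. Scaled in common over 16 libraries, slopes on log2 length were 0.0570 and 0.0741 in fish oil/pectin other-named libraries and -0.0670, -0.133, -0.115, -0.163 and -0.179 in GC-named libraries of that diet. The difference between diets rests on the same 2 other-named libraries as above: scaled to total counts alone, 16.1% of 1258 such genes were positive, against 53% with TMM factors.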

How the data were processed

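The deposited values are read counts per gene symbol, 1 column per library and not normalised, and 0 columns were left unused. The submitters' processing notes name the aligner STAR 2.6.0a, the counter HTSeq 0.11.1 and build GRCm38, with strand setting and annotation release not given in sources used here. Per the labels' protocols, 200 ng of total RNA from a micro-scale column kit entered a stranded mRNA library preparation. Of 54392 symbols, 98.8% matched GENCODE M21 for identifiers, coordinates and exon length (the union of exons), and upstream sequences came from RefSeq.

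Libraries were grouped by diet and by whether the column name began with GC. The 9 corn oil/cellulose libraries were compared with edgeR 4.0.16 (R 4.3.3): TMM scaling, filterByExpr (minimum count 10), and the robust quasi-likelihood test with Benjamini-Hochberg adjustment over 13971 genes, which held 99.9% of counts. Counts of genes are over chromosomes 1 to 19. A fit of 4 groups over 16 libraries gave the fish oil/pectin contrast and the difference between diets. Standard errors are the absolute log2 fold change over the root of F. On simulated counts for the 5 against 4 comparison over 13971 genes, 62.9% of 62 genes changed 1.5-fold, 87.1% of 70 changed 2-fold and 97.1% of 68 changed 4-fold were recovered. Only those genes were changed and no length trend was added to these counts, so recovery in the measured libraries can differ. Chi-square per degree of freedom was 8.2 to 20.5 over 16 pairs of libraries of the same name form and 22.2 to 43.5 over 20 pairs of different form, so no pair agreed within sampling noise.

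The named genes are the 12 largest changes in each direction at a mean log2 CPM of at least 1, leaving out predicted genes, pseudogenes and receptor segments; up to 4 members of lowest p in each of 41 lists; and a fixed list. Some of them are not reported here. Members and lists were chosen with earlier results of these data known, so lists get counts and medians beside those of all genes and no test. Alternatives were other scalings, no filter, DESeq2 1.42.0, limma 3.58.1 voom with quality weights, all 16 libraries, terms for number series, Y-linked level and a non-epithelial score, each series alone, libraries with over 100 counts of 4 Y-linked genes alone, loess removal of the length trend (span 0.3), stricter thresholds, and each library left out. Msn is X-linked and was left out of the counts.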

Additional observations from a re-analysis of the deposited data

Results flagged for a closer look

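Values in 236 groups of 4 or 5 corn oil/cellulose libraries (116 named genes, the length slope and the total count, in each name form) were checked for a library standing apart, and 16 groups had one; chance alone gives about 1 in 20. Among other-named libraries, replicate 3 was lowest for Zfp36 at 62.5 CPM, where the nearest other library was at 76.5, and for Ptprc at 4.07 CPM (nearest 5.73). The same library was highest for Mcpt1 at 4.43 CPM (nearest 3.16), Mcpt2 at 2.45 CPM (nearest 1.20) and Nlrc5 at 0.838 CPM (nearest 0.699). Replicate 2 was highest for Gzmb at 1.60 CPM (nearest 0.799), and replicate 1 for Car1 at 5408 CPM (nearest 4159).

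Among GC-named libraries, replicate 6 was lowest for Ier5 at 54.9 CPM (nearest 62.1) and highest for Lyz2 at 3.09 CPM (nearest 2.23) and AI480526 at 20.2 CPM (nearest 15.9). Replicate 7 was lowest for Ppp1r15a at 42.3 CPM (nearest 51.2) and highest for Lcor at 24.3 CPM (nearest 18.0) and Vps13b at 84.5 CPM (nearest 75.7). Replicate 8 was highest for Hspb1 at 3.36 CPM (nearest 2.00) and Nlrc5 at 4.80 CPM (nearest 2.61), and replicate 9 for Dusp1 at 191 CPM (nearest 161).

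The name-form difference differed between the diets, by the interaction term of the joint edgeR fit, for 23 of the 116 named genes. Values are log2, fish oil/pectin minus corn oil/cellulose. Among T and NK genes they were -1.80 for Itgae, -2.26 for Il2rb and -2.77 for Sh2d2a. Among leukocyte genes they were -2.06 for Ptprc, -2.06 for Itgb2, -1.95 for Arhgap45, -1.70 for Fmnl1 and -2.37 for Cd53. Antigen presentation genes gave -2.65 for Cd74, -2.25 for H2-Ab1, -2.62 for H2-Q6, -1.70 for H2-Q7 and -3.17 for Nlrc5. Fish oil/pectin other-named replicate 2 held 85.9 CPM of Cd74 and 29.9 CPM of H2-Ab1, and without it the differences were -0.52 for Cd74 and -0.39 for H2-Ab1.

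Epithelial and other genes that differed in this way were Krt19 (0.46), Krt8 (0.41), Ern2 (-0.58), Rnf43 (-0.53), Lcor (-1.23), Ndufb10 (0.53), Vps13c (-0.88), Kmt2c (-0.65), Gpx4 (0.63) and Fth1 (0.59). The adjusted p of the 23 ran from 0.00389 to 0.0475. Without fish oil/pectin other-named replicate 2 it ran from 0.0299 to 0.738, and 2 of the 23 (Ptprc and Arhgap45) passed. Both passed with any of the 16 libraries left out.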

How the results depend on the processing

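The number of autosomal genes called in corn oil/cellulose, 2832, stayed within 1.5 times under DESeq2-type size factors (2831), total counts (2927), no filter (2832), DESeq2 (3210), voom (3324), all 16 libraries in the fit (1964), the number series as a term (2638) and removal of the length trend (2249), and ranged from 1952 to 2994 with a library left out. It was 1738 with the Y-linked level as a term, 1548 with the number series and the Y-linked level as terms, 19 with the non-epithelial score as a term, 577 in the 700 series alone, 411 in the 800 series alone and 1834 among libraries with Y-linked counts. These subsets hold fewer libraries. It was 1329 at an adjusted p of 0.01 and 704 with a 1.5-fold minimum. No fit of libraries without Y-linked counts was possible, since all other-named libraries had them. No paired analysis was possible because the GC-named and other-named corn oil/cellulose groups share no replicate numbers. With a library left out, the fish oil/pectin count (5549) ranged from 3057 to 5821 and the count for the difference between diets (1148) from 5 to 1650; the latter was also 696 without a filter and 2002 with voom. A group left with a single library was assumed to vary like the others.

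The length slope difference kept its direction in each setting tried and missed the threshold where the splits allow no p under 0.05: -0.0734 in the 700 series (exact permutation p = 0.333, smallest possible 0.167), -0.0465 in the 800 series (p = 0.2 by exact permutation, smallest 0.1) and -0.0694 among libraries with Y-linked counts (exact permutation p = 0.0667, the smallest possible). Some list balances turned. Deep crypt secretory genes (1 called) had 3 called, mostly lower, in the 700 series, and 1 to 3 with a library left out. Stem and crypt base genes (4 called) had 1 called, higher, with all 16 libraries, in the 800 series and with the length trend removed, and 1 to 5 with a library left out. With the length trend removed p53 targets had 3 called and long nuclear genes 9 (5 higher, 4 lower).

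With the non-epithelial score as a term, 18 of the 116 named genes turned, at an adjusted p of at least 0.156: Klf4 to 0.77, Cd3e to -0.55, Cd8a to -2.25, Itgae to -0.66, Gzmb to -0.016, Fcer1g to -0.78, Tyrobp to -0.22, H2-Q7 to -0.73, Car1 to -0.26, Aqp8 to 2.15, Chga to -0.53, Chgb to -0.82, Tph1 to -0.051, Sh2d6 to -1.76, Kif11 to 0.098, Xcl1 to -0.40, Kmt2c to 0.14 and Clock to 0.016, and 80 others were no longer called. Of genes not called, Klf4 (0.046) and Aqp8 (0.037) turned in the 700 series, Dclk1 (0.10), Mki67 (0.17) and Hoxd13 (-0.20) in the 800 series, and Epcam (-0.034) with the length trend removed. Klf4 ranged from -0.074 to 0.042 and Aqp8 from -0.24 to 0.078 with a library left out. The cause of these changes was not tested.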

Other observations

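Core circadian clock genes had 2 higher (11.8%, against 10.7% of all genes) and 4 lower (23.5%, against 10.3%) of 17 tested. They had 1 higher and 2 lower in the fit of all 16 libraries and among libraries with Y-linked counts alone. Nr1d1, the REV-ERBalpha repressor, was at 72.1, 50.6, 46.2 and 79.5 CPM in the other-named libraries and 130.3, 173, 155, 129 and 124 CPM in the GC-named libraries, with the groups apart (log2 difference 1.19 ± 0.17 (SE; adjusted p = 0.00146)). Clock, the activator it opposes, was at 170.3, 153, 191 and 178 CPM in the other-named libraries and 113, 120.4, 143, 129.6 and 119.9 CPM in the GC-named libraries, also apart (log2 difference -0.47 ± 0.077 (SE; adjusted p = 0.0012)). Per1, a light- and cyclic AMP-responsive period gene, was at 22.7, 25.2, 34.7 and 30.7 CPM in the other-named libraries and 40.2, 23.2, 48.6, 24.0 and 29.6 CPM in the GC-named libraries, with overlap (log2 difference 0.23 ± 0.24 (SE; adjusted p = 0.534)). Time of collection is not given in the labels used here. In fish oil/pectin Nr1d1 was at 20.5 to 26.3 CPM in other-named and 37.0 to 143 CPM in GC-named libraries (log2 2.10 ± 0.44 (SE; adjusted p = 0.00203)), and Clock at 151 to 196 CPM and 69.9 to 106 CPM (log2 -0.88 ± 0.13 (SE; adjusted p = 9.4e-05)). Of p53 target and apoptosis genes, 1 of 19 was called higher (5.26%, against 10.7% of all genes), and 3 were without other-named replicate 3. Deep crypt secretory genes had 1 higher of 10 (10%, near the 10.7% of all genes).

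Gene classes chosen after values were seen also differed in balance. Of 830 noncoding or unconfirmed genes, 2.77% were higher and 15.2% lower, with a median of -0.23, against 11.5% and 10.3% of 12084 protein-coding genes. Of 518 pseudogenes 4.44% were higher and 2.51% lower. Zinc finger genes with numbered Zfp, Zbtb, Zkscan or Zscan symbols had 7 higher and 55 lower of 369 (14.9% lower), with a median of -0.14. The part of exon length in these values was not tested.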
